A study of Homo sapiens with 8 samples.

Results

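The MYC, MAX and MXD network is a group of transcription factors that compete for the partner MAX or its relative MLX. A set of 10 of its genes was taken by symbol: MYC, MYCN, MAX, MXD1, MXD3, MXD4, MXI1, MNT, MLX and MLXIP. A gene was followed through the probe set with the highest mean over the 8 arrays among those that list its symbol alone, and its other probe sets were checked against that choice. Of the 10 genes 9 had such a probe set, 33 probe sets in all, and all 9 passed the filter on dim signals that left 14180 of 19775 measured genes. MXD4 was not analysed here, since each of its probe sets also lists a microRNA gene. The choice of probe set used the mean over all arrays and not the groups. The genes themselves were chosen with the difference of MYC between 30D and 30U already known, so for MYC that comparison, and the difference between the lines' changes that rests on it, are descriptions with no test.

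MYC and MYCN bind DNA as pairs with MAX and activate genes of growth, ribosome assembly and metabolism. MXD1, MXD3, MXD4, MXI1 and MNT pair with the same MAX, recruit SIN3 and histone deacetylases and repress many of the same genes, so the balance of the partners sets the output. MLX pairs with MLXIP, also called MondoA, which senses glucose metabolites and drives TXNIP and ARRDC4. All of these pairs bind variants of a short DNA motif, the E-box. MYC is commonly gained in squamous carcinoma of the esophagus.

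The samples are sublines of KYSE30 and KYSE180, both established human esophageal squamous cell carcinoma lines, profiled on Affymetrix arrays. The labels describe D sublines as the more motile cells and U sublines as the less motile cells of a transwell selection through a porous membrane. Selection ran for 4 rounds, and RNA was taken 2 passages after harvest from cells in standard culture, with no treatment or genetic change named. The groups are 30U and 30D from KYSE30 and 180U and 180D from KYSE180, with 2 arrays each. The labels pair every D subline with a U subline of the same parental population, 4 populations in all. Replicate numbers follow those pairs in KYSE30 but are crossed in KYSE180. Both lines are models of 1 tumour each. So few arrays limit the precision, and the spread behind a p-value is that of populations selected apart from each other. In bulk RNA, fewer cells of a kind and less RNA per cell cannot be told apart.

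The E-box CACGTG, which reads the same on both strands, was searched in RefSeq promoter windows of build GRCh38.p14, from 250 bases before to 50 after each start site. It was present in 7.26% of 35116 promoters, and 8.77% of 27305 genes had it in at least 1 window. Of the network genes 9 were matched, all but MYC, and 3 held it, namely MNT, MLX and MXD4. Among genes known to be induced by MYC, 19 of 34 matched genes held it, and among targets of MLX and MLXIP 3 of 4. A match is a description of these letters and not a measured binding site. The windows below show the 3 network promoters first, then HK2 and SRM, induced genes that were higher in 30D, ODC1, which was lower in 180D, and ARRDC4 from the MLX branch. Capitals mark the motif, positions count from the start site on the gene's strand, and all windows lie upstream of it.
MNT, chr17:2401226-2401275, strand -, motif at -193: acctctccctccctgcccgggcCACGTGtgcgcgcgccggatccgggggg
MLX, chr17:42567028-42567077, strand +, motif at -50: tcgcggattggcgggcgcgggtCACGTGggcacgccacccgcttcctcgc
MXD4, chr4:2262320-2262359, strand -, motif at -238: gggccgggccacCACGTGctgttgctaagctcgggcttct
HK2, chr2:74834954-74835003, strand +, motif at -194: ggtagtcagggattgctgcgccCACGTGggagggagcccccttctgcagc
SRM, chr1:11060190-11060239, strand -, motif at -199: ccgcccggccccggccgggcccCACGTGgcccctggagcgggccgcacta
ODC1, chr2:10448014-10448063, strand -, motif at -29: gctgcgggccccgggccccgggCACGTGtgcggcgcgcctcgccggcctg
ARRDC4, chr15:97960471-97960520, strand +, motif at -210: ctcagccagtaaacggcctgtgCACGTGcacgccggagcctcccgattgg
HK2 and ODC1 each held 2 copies over their promoter entries, of which 1 is shown.

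Correlation was 0.997 to 0.998 within groups, 0.992 to 0.995 between U and D of a line, and 0.860 to 0.869 across lines. On the array of 180D replicate 1 the 3′ signal of ACTB exceeded the 5′ signal by 1.92, against 1.06 to 1.42 on the other 7 arrays. The 18S rRNA control read 11.41 on that array, against 12.02 to 12.15 on the other 7. The epithelial marker CDH1 was high in both lines, with group means of 11.67 to 11.83. The squamous keratin KRT5 read 4.63 in 30U and 4.84 in 30D, near the filter value of 4.46, against 12.30 in 180U and 12.27 in 180D. PKP1 read 4.90 and 4.61 in 30U and 30D against 10.28 and 10.18 in 180U and 180D. DSG3 read 7.17 and 7.11 against 10.70 and 10.38. The mean over the squamous list was 8.84 to 9.08 on KYSE30 arrays and 11.72 to 11.92 on KYSE180 arrays. Of 10 squamous markers tested SFN, JUP and LAMB3 were higher in 30D, and so was KRT14, whose level in both KYSE30 groups was under the filter and which was tested only through its KYSE180 level. Among all genes 8.42% were higher. In 180D none of the 10 passed by limma (4 lower at an unadjusted p under 0.05), where 3.75% of all genes did. Their median there was -0.11, against 0.02 over all genes. The difference between the lines' changes passed for 4, KRT14 among them, all lower in KYSE180 relative to KYSE30, where 5.21% of all genes were. The part of these markers in the results was not tested. The mean level of the markers of other cell types stayed low on every array. It was 4.46 to 4.79 for fibroblasts, 4.06 to 4.31 for immune cells and 4.10 to 4.49 for endothelium. In these lists 3 of 6, 3 of 5 and 2 of 4 genes lay under the filter. Single markers lay well above it, with group means of 6.63 to 7.84 for COL1A1, 6.22 to 6.41 for CD79A and 5.70 to 5.74 for PECAM1. Of the fibroblast list COL1A1 was higher in 180D (0.58 ± 0.11, limma adjusted p = 0.0350), and its part was not tested either.

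In the fit of all arrays MYC was higher in 30D than in 30U, as were MXD1 and MLX, while the repressors MNT and MXI1 were lower. Of the 9 members 5 passed a limma adjusted p of 0.05, 3 higher and 2 lower, and of the 8 without MYC 4 did, where 16.5% of all tested genes passed (8.42% higher and 8.12% lower). The count depended on single arrays. With MYC it was 2 without either 30U array and 3 without either 30D array, and 2 to 6 over the 8 fits that left out an array. In KYSE180 only MXI1 passed, lower in 180D, where 3.75% of all genes passed (2.55% higher and 1.21% lower). Changes are log2 differences, D minus U, with the SE of the fit.

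MYC, the growth-promoting partner of MAX, has 1 usable probe set. It read 8.55 and 8.50 in 30U, 9.51 and 9.57 in 30D, 10.57 and 10.59 in 180U, and 10.63 and 10.49 in 180D. The KYSE30 groups did not overlap, whereas the KYSE180 groups did. The difference in KYSE30 was 1.02 ± 0.06, or 2.03-fold, and in KYSE180 it was -0.01 ± 0.06 (limma adjusted p = 0.933). By parental population it was 0.97 and 1.07 in KYSE30 and -0.08 and 0.05 in KYSE180. The order of the group means was thus 30U, 30D and then both KYSE180 groups, which did not differ beyond their spread. The KYSE180 change minus the KYSE30 change was -1.03 ± 0.09.

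MYCN, the neuronal relative of MYC, was dim. Its brightest of 10 probe sets, of a kind that can also bind other transcripts, ranged from 5.35 to 5.63 over the 8 arrays, and 3 of the 10 passed the filter. The groups overlapped, with differences of -0.04 ± 0.10 in KYSE30 and -0.02 ± 0.10 in KYSE180 (limma adjusted p = 0.823 and 0.930).

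**Figure D1:**
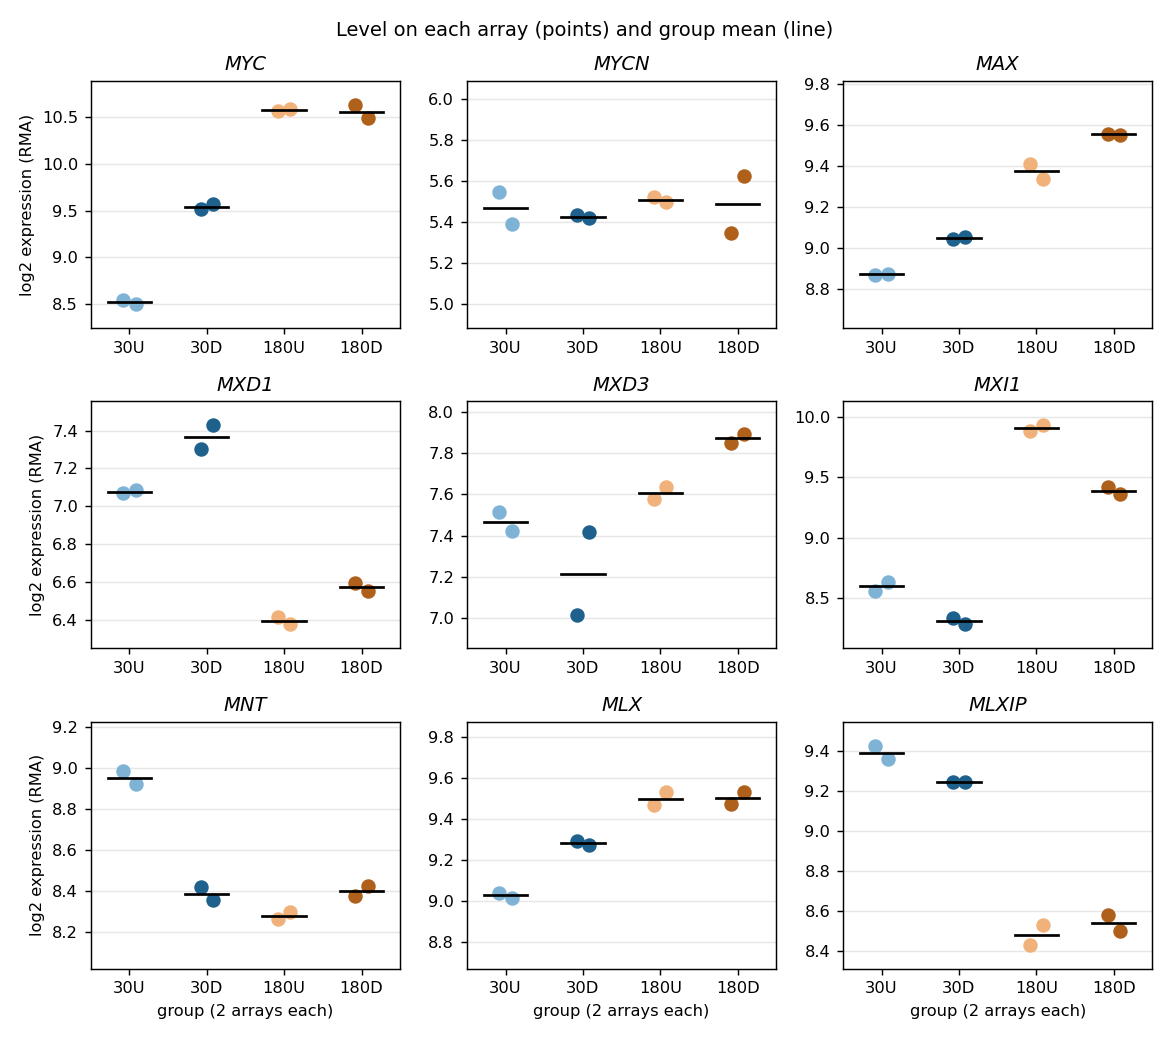
Log2 expression (RMA, vertical axis) of the 9 measured network genes on each array (points) by group, with the group mean as a line; each panel has its own range. MYC steps up from 8.52 in 30U to 9.54 in 30D and 10.58 in 180U, while MXI1 lies lower in the D group of both lines.

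MAX, the common partner, was 8.87 and 8.88 in 30U, 9.05 and 9.05 in 30D, 9.41 and 9.34 in 180U, and 9.56 and 9.55 in 180D. In neither line did the U and D arrays overlap. The difference was 0.18 ± 0.05 in both lines, and it passed in neither (limma adjusted p = 0.0555 in KYSE30 and 0.115 in KYSE180). By parental population it was 0.18 and 0.18 in KYSE30 and 0.14 and 0.22 in KYSE180. The call in KYSE30 lay close to the threshold and passed under 6 of the alternatives, among them an intensity trend (adjusted p = 0.0177), the KYSE30 arrays alone (adjusted p = 0.0426) and the fits without either 180U array (adjusted p = 0.0499). The next brightest MAX probe set gave 0.27 ± 0.07 in KYSE30 but -0.05 ± 0.07 in KYSE180. Its KYSE30 difference passed when it stood for MAX among the genes (limma adjusted p = 0.0399). It did not pass over all probe sets (adjusted p = 0.0593). Dimmer probe sets that can also bind other transcripts gave 0.19 in KYSE30, and in KYSE180 -0.15 and -0.07, with the lowest values on 180D replicate 1 (6.44 and 6.24). The dimmest MAX probe set past the filter, with a mean of 5.57, gave 0.22 ± 0.12 in KYSE30 and 0.24 ± 0.12 in KYSE180. The value of MAX in KYSE180 therefore depended on the probe set.

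MXI1, also known as MXD2, represses through SIN3 and was the member that passed in both lines. Its only probe set read 8.56 and 8.64 in 30U, 8.33 and 8.28 in 30D, 9.89 and 9.93 in 180U, and 9.42 and 9.36 in 180D. D arrays lay below U arrays in each line without overlap. The difference was -0.29 ± 0.06 in KYSE30 (limma adjusted p = 0.0144) and -0.52 ± 0.06 in KYSE180 (adjusted p = 0.00421). By parental population it was -0.23 and -0.35 in KYSE30 and -0.52 and -0.51 in KYSE180. The changes of the lines differed by -0.23 ± 0.08, which did not pass (adjusted p = 0.111). In KYSE30 the call was lost with any 1 of the 4 KYSE30 arrays left out (highest adjusted p 0.106), while in KYSE180 it was kept in all 8 fits that left out an array (highest adjusted p 0.0329).

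MNT, the broadly expressed repressor among the MAX partners, read 8.98 and 8.92 in 30U and 8.42 and 8.36 in 30D. In 180U it read 8.26 and 8.30, and in 180D 8.38 and 8.43. The 30U arrays stood above the 6 others. MNT was lower in 30D (-0.56 ± 0.06, limma adjusted p = 0.00124), with -0.56 in both populations, and differed by 0.12 ± 0.06 in KYSE180 (adjusted p = 0.292). The changes of the lines differed by 0.68 ± 0.08 (adjusted p = 0.00281). Both calls of MNT were kept in all 8 fits without an array. A much dimmer MNT probe set, with a mean of 5.01, gave -0.04 ± 0.11 in KYSE30. With the mean of both probe sets MNT was at -0.30 in KYSE30 and 0.41 in the difference, and both passed (adjusted p = 0.0230 and 0.0344).

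MXD1, a repressor that accompanies terminal differentiation, read 7.07 and 7.09 in 30U, 7.31 and 7.43 in 30D, 6.42 and 6.38 in 180U, and 6.60 and 6.56 in 180D. D arrays lay above U arrays in both lines. MXD1 was higher in 30D by 0.29 ± 0.06 (limma adjusted p = 0.0176) and differed by 0.18 ± 0.06 in KYSE180 (adjusted p = 0.161). Another MXD1 probe set gave 0.56 ± 0.10 in KYSE30 (adjusted p = 0.0138 over all probe sets) and 0.13 ± 0.10 in KYSE180. The KYSE30 call was lost without either 30U array or without 30D replicate 2 (highest adjusted p 0.120).

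MXD3, a member of the family linked to the S phase of proliferating cells, read 7.51 and 7.42 in 30U, 7.01 and 7.42 in 30D, 7.58 and 7.63 in 180U, and 7.85 and 7.89 in 180D. The 30D arrays lay apart from each other by more than the distance between the group means. The differences were -0.25 ± 0.12 in KYSE30 and 0.27 ± 0.12 in KYSE180, and neither passed (limma adjusted p = 0.207 and 0.289), nor did the difference between them, 0.52 ± 0.17 (adjusted p = 0.0973). In KYSE30 the populations gave -0.50 and -0.00. Without 30D replicate 2 the KYSE30 difference was -0.46 and the difference between the lines' changes 0.72. Without 30D replicate 1 they were -0.05 and 0.32, so both values depended on which 30D array was kept.

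MLX, the partner of the glucose-sensing branch, read 9.04 and 9.01 in 30U, 9.29 and 9.27 in 30D, 9.47 and 9.53 in 180U, and 9.47 and 9.53 in 180D. It was higher in 30D by 0.25 ± 0.05 (limma adjusted p = 0.0177), whereas the KYSE180 groups overlapped (0.00 ± 0.05, adjusted p = 0.987). The difference between the lines' changes was -0.25 ± 0.07 (adjusted p = 0.0711). Blocking on the parental population ended the KYSE30 call (adjusted p = 0.0566), and it was also lost with any 1 of the 4 KYSE30 arrays left out (highest adjusted p 0.116). The next 2 probe sets of MLX gave 0.31 ± 0.06 and 0.22 ± 0.08 in KYSE30, and dimmer ones gave 0.29, 0.10 and 0.04. On the mean of its probe sets MLX did not pass there (0.20, adjusted p = 0.0656). MLXIP, its DNA-binding partner, read 9.42 and 9.36 in 30U, 9.24 and 9.24 in 30D, 8.43 and 8.53 in 180U, and 8.58 and 8.50 in 180D. Its differences of -0.15 ± 0.06 and 0.06 ± 0.06 did not pass (adjusted p = 0.145 and 0.654), and another MLXIP probe set gave -0.15 and 0.04.

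**Figure D2:**
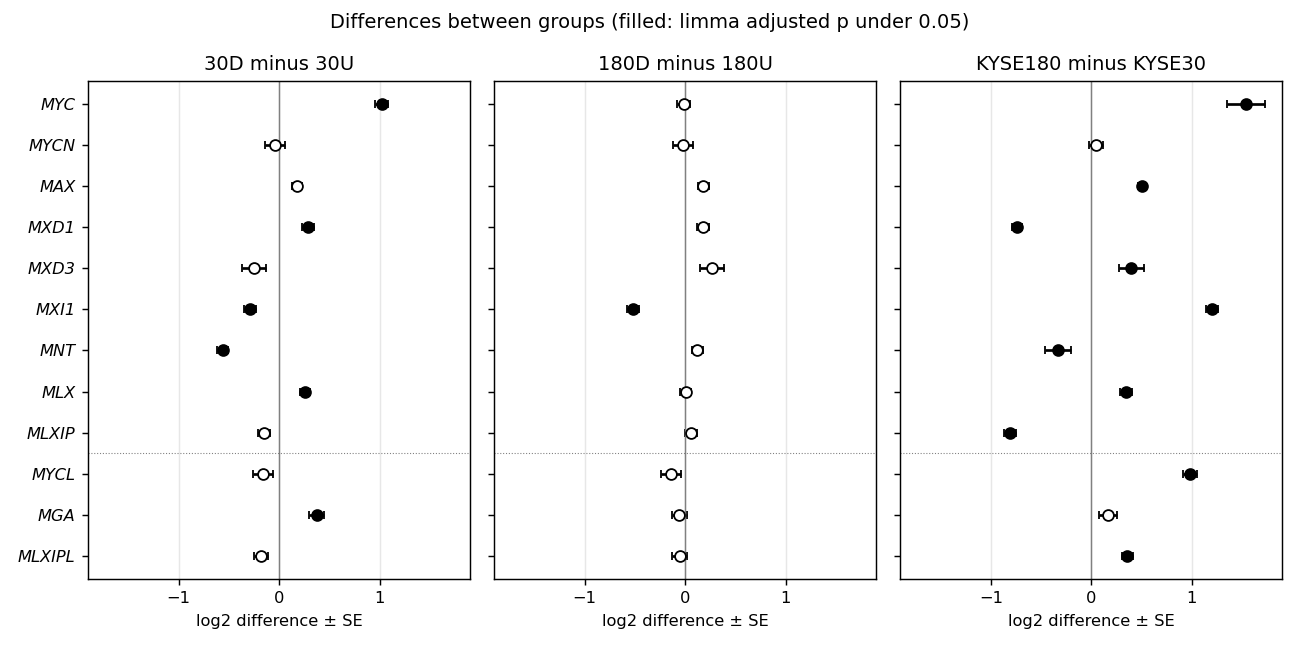
Log2 differences (horizontal axis, ± SE of the limma fit, 2 arrays per group) for the network genes and, under the dotted line, MYCL, MGA and MLXIPL; filled points passed an adjusted p of 0.05. In 30D minus 30U MYC stands at 1.02 and MNT at -0.56, and in 180D minus 180U MXI1 is the only filled point.

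Other genes belong to the same network. MGA, a very large MAX partner that represses germ cell genes, read 7.65 and 7.58 in 30U, 7.99 and 7.98 in 30D, 7.93 and 8.06 in 180U, and 7.87 and 8.004 in 180D. It was higher in 30D by 0.37 ± 0.07 (limma adjusted p = 0.0142) on its brightest probe set. The next probe sets of MGA gave 0.04 ± 0.06 and 0.08 ± 0.11, so the difference was seen on 1 probe set, and with any 1 of the 4 KYSE30 arrays left out the call was lost (highest adjusted p 0.0937). MYCL, the third MYC gene, and MLXIPL, the ChREBP partner of MLX, differed by -0.16 ± 0.10 and -0.18 ± 0.07 in KYSE30 and passed in neither line.

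**Figure D3:**
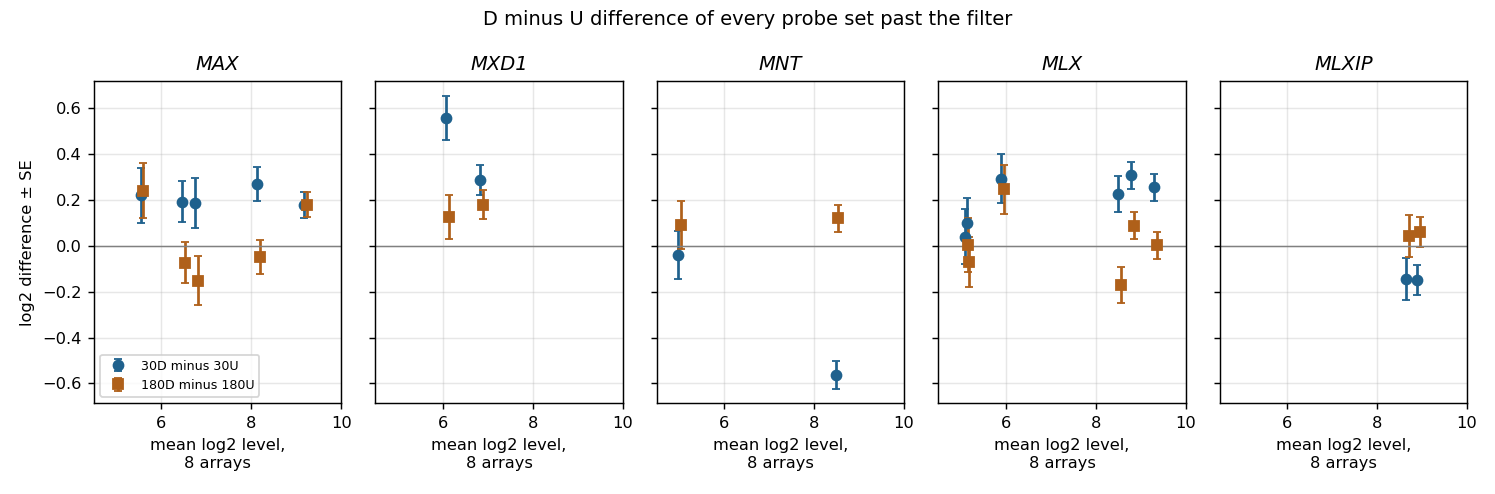
Log2 differences D minus U (vertical axis, ± SE) of every probe set past the filter, against its mean log2 level over the 8 arrays (horizontal axis), for network genes with more than 1 usable probe set apart from MYCN. The MAX probe sets all lie above 0 in KYSE30 and on both sides of 0 in KYSE180, and the MNT difference of -0.56 comes from the brighter of its probe sets.

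The change from U to D was compared directly between the lines. Besides MYC, 1 of the 8 other members passed, MNT, with the higher change in KYSE180, a share near the 12.2% of all genes that passed (6.94% with the higher change in KYSE180 and 5.21% with the lower). MNT was kept in all 8 fits without an array (highest limma adjusted p 0.0178) and lost on its dim probe set (adjusted p = 0.611). MGA also passed (-0.43 ± 0.10, adjusted p = 0.0365). That call did not hold when blocked by parental population (adjusted p = 0.0956), nor in 6 of the 8 fits without an array, those without a KYSE30 array, 180U replicate 2 or 180D replicate 1 (highest adjusted p 0.126). For MAX the value was 0.00 ± 0.07 on its brightest probe set but -0.32 ± 0.10, -0.34 ± 0.15 and -0.27 ± 0.13 on the next ones. On the dimmest one it was 0.02 ± 0.17, and none of these values passed.

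The lines themselves differed in 8 of the 9 members, 5 higher and 3 lower in KYSE180, where 67.1% of all genes differed (36.1% higher and 31.0% lower). MYC was higher in KYSE180 by 1.54 ± 0.19 and MXI1 by 1.20 ± 0.06, or 2.90-fold and 2.30-fold (limma adjusted p = 9.58e-05 and 3.47e-07). MAX was higher by 0.50 ± 0.04, MXD3 by 0.40 ± 0.12 and MLX by 0.34 ± 0.06. MLXIP changed by -0.81 ± 0.06 between the lines, MXD1 by -0.74 ± 0.05 and MNT by -0.33 ± 0.13. The fit behind these values takes D minus U as equal in both lines, which the direct test did not bear out for MNT, nor the values for MYC, and their SE is the widest here. The MNT call was lost without 30U replicate 1, 30U replicate 2, 180U replicate 1 or 180U replicate 2 (highest adjusted p 0.133), and the MXD3 call without 180D replicate 1 or 180D replicate 2 (highest adjusted p 0.0614).

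Probe sets did not bear out every difference between the lines. Of the MAX probe sets only the brightest passed as higher in KYSE180 (0.50). The next gave 0.08 ± 0.08 and dimmer ones -0.19 ± 0.10 and -0.19 ± 0.08, none of which passed over all probe sets. The dimmest gave -0.46 ± 0.08 (limma adjusted p = 0.00112), and the mean of all MAX probe sets gave -0.05 (adjusted p = 0.424). MNT did not pass on the mean of its probe sets either (-0.14, adjusted p = 0.180). The second probe set of MLXIP gave -0.93 ± 0.07 and that of MXD1 -0.34 ± 0.10, in the direction of the first. Outside the 10 genes MYCL was higher in KYSE180 by 0.98 ± 0.07 (0.62 on the mean of its probe sets and 0.26 on the dimmer one) and MLXIPL by 0.36 ± 0.06, while MGA differed by 0.16 ± 0.09 (adjusted p = 0.147).

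Genes known to be induced by MYC, which serve ribosome assembly, polyamine synthesis and metabolism, were next compared. In 30D 10 of 33 tested genes were higher, where 8.42% of all genes were, and none was lower by limma (2 at an unadjusted p under 0.05). Their median difference was 0.06, against 0.01 over all genes. The list was chosen with earlier results of these data known. Of the 10 only POLR3G, HK2, SRM, RRP12 and UTP20 were refitted under the alternatives, so how far the count holds was not tested. HK2, the hexokinase of growing cells, was 8.41 and 8.34 in 30U and 8.95 and 8.99 in 30D (0.59 ± 0.07, adjusted p = 0.00253). POLR3G, a subunit of RNA polymerase III, was 6.36 and 6.27 in 30U and 6.85 and 6.93 in 30D (0.58 ± 0.06, adjusted p = 0.00154). For both the groups did not overlap and the call was kept in all 8 fits without an array, while the mean of a gene's probe sets gave 0.30 for HK2 and 0.36 for POLR3G. SRM, the spermidine synthase, was higher by 0.42 ± 0.07 and RRP12, a ribosome assembly factor, by 0.39 ± 0.07. SRM was lost without 30U replicate 2 or 30D replicate 1, and RRP12 without those or 30U replicate 1 (highest adjusted p 0.0569 and 0.0618). With the mean of its probe sets RRP12 did not pass (adjusted p = 0.486). Of the 8 genes higher in 30D with a promoter entry 5 held the E-box, and of the 21 that did not pass 13 did.

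In KYSE180 no MYC-induced gene of the 33 was higher in 180D by limma (none at an unadjusted p under 0.05), near the 2.55% of all genes that were, and their median was -0.04, against 0.02 over all genes. ODC1, the ornithine decarboxylase and a classic MYC target, was the 1 that was lower. It read 12.64 and 12.71 in 180U and 11.94 and 11.97 in 180D (-0.72 ± 0.05, adjusted p = 0.000676), kept in all 8 fits without an array. In KYSE30 ODC1 lay between 11.73 and 11.75 on all 4 arrays. The difference between the lines' changes passed for 8 of the 33, all lower in KYSE180 relative to KYSE30, where 5.21% of all genes were, with a median of -0.11 against 0.01 over all genes. They included POLR3G (-0.75 ± 0.08), HK2 (-0.73 ± 0.10) and ODC1 (-0.73 ± 0.07), with limma adjusted p = 0.00271, 0.0057 and 0.00174. With the mean of all probe sets of a gene HK2 (-0.26) and POLR3G (-0.43) did not pass (adjusted p = 0.116 and 0.0906).

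Between the lines 21 of the 33 were higher in KYSE180 and 5 lower, where 36.1% and 31.0% of all genes were, with a median of 0.27 against 0.05 over all genes. IPO4, an importin for ribosomal and histone proteins, was higher by 2.10 ± 0.06, WDR43, a ribosome assembly factor, by 1.05 ± 0.05 and CAD, the enzyme that starts pyrimidine synthesis, by 1.03 ± 0.06. HSPE1, the mitochondrial co-chaperonin, differed the other way (-0.75 ± 0.05). All 4 were kept in the 8 fits without an array.

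Genes that MYC represses moved both ways. In 30D 3 of 12 were lower and 1 higher, where 8.12% and 8.42% of all genes were, with a median of -0.11. CDKN1A, the cyclin-dependent kinase inhibitor p21 and also a p53 target, read 9.85 and 9.97 in 30U and 9.02 and 8.90 in 30D (-0.95 ± 0.07, limma adjusted p = 0.000299). NDRG1, a stress and hypoxia gene, read 9.14 and 9.07 in 30U and 9.79 and 9.82 in 30D, so it was higher (0.69 ± 0.05, adjusted p = 0.000425). Both were kept in all 8 fits without an array. CLU (-0.29 ± 0.06) and CDKN1B (-0.21 ± 0.05) were lower as well. Neither was kept with any 1 of the 4 KYSE30 arrays left out (highest adjusted p 0.149 and 0.203), nor CDKN1B when blocked by parental population (adjusted p = 0.0893).

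In 180D THBS1, a matrix glycoprotein that restrains vessel growth, was higher, with 9.86 and 9.95 in 180U and 10.42 and 10.54 in 180D (0.57 ± 0.06, limma adjusted p = 0.00494). NDRG1 was lower there (-0.37 ± 0.05, adjusted p = 0.0121), but not when blocked by parental population (adjusted p = 0.0613), and not without 180U replicate 1 or 180D replicate 1 (highest adjusted p 0.0670). The changes of the lines differed for 5 of the 12, where 12.2% of all genes differed. CDKN1A (0.87 ± 0.09), THBS1 (0.70 ± 0.09, or 0.43 on the mean of its probe sets), CLU (0.48 ± 0.09) and CDKN1B (0.30 ± 0.08) were higher, and NDRG1 was lower (-1.07 ± 0.07), in KYSE180 relative to KYSE30. The call of CLU was lost without 30U replicate 2 or either 30D array (highest adjusted p 0.0728), and that of CDKN1B in all 8 fits and when blocked by parental population (adjusted p = 0.106).

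The same list differed between the lines in 10 of 12 genes, with 7 lower in KYSE180 and 3 higher, where 31.0% and 36.1% of all genes were, and a median of -0.72. CDKN2B, the p15 inhibitor of CDK4, read 8.81 to 9.02 on KYSE30 arrays and 2.48 to 2.65 on KYSE180 arrays. Both KYSE180 groups lay under the filter value, so CDKN2B was tested only through its KYSE30 level. It is counted among the 7 lower genes. Measured from the filter value it was at least 22.2-fold lower in KYSE180, and the fitted difference went from -6.38 to -3.50 with the mean of its probe sets. The growth arrest genes GADD45B and GADD45A followed with -2.36 ± 0.07 (-1.51 on the mean of its probe sets) and -2.10 ± 0.06, and NDRG2 was higher by 2.13 ± 0.11.

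**Figure D4:**
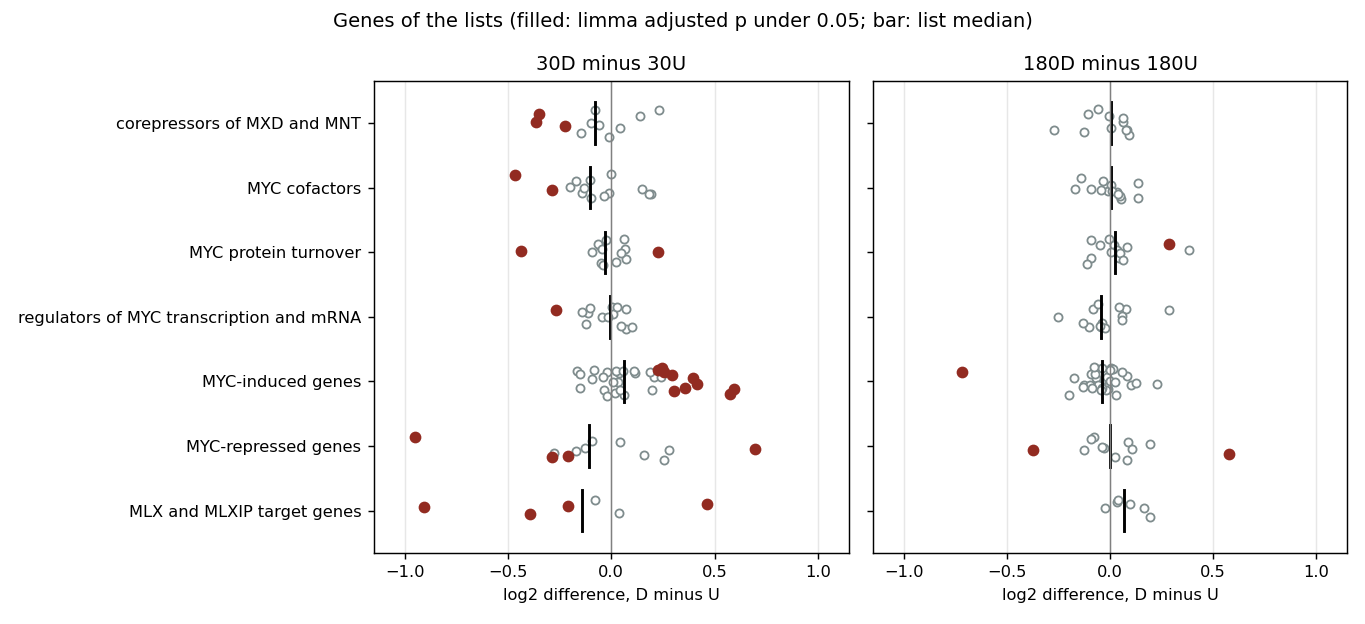
Log2 differences D minus U (horizontal axis) of the tested genes of each list, in KYSE30 (left) and KYSE180 (right); filled points passed a limma adjusted p of 0.05 and the vertical bar is the list median. Filled MYC-induced genes lie right of 0 in KYSE30, 10 of 33, and the 1 filled gene of that list in KYSE180 is ODC1 at -0.72.

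Among 6 targets of the MLX and MLXIP branch, 3 were lower and 1 higher in 30D, where 8.12% and 8.42% of all genes were, with a median of -0.14. FASN, the fatty acid synthase, read 10.04 and 10.12 in 30U and 9.12 and 9.22 in 30D (-0.91 ± 0.12, limma adjusted p = 0.00328). The arrestins TXNIP and ARRDC4, both standard readouts of MLXIP, went opposite ways, with TXNIP at -0.39 ± 0.07 and ARRDC4 at 0.47 ± 0.08 (adjusted p = 0.0112 and 0.00812). The FASN call was kept in all 8 fits without an array. On the mean of its probe sets FASN was at -0.53 in 30D, 0.52 in the difference between the lines' changes and -0.68 between the lines, and each passed. TXNIP was lost with any 1 of the 4 KYSE30 arrays left out (highest adjusted p 0.0778), ARRDC4 without 30U replicate 2 or 30D replicate 2 (highest adjusted p 0.0601), and KLF10 (-0.21 ± 0.06) in all 8 fits and when blocked by parental population (highest adjusted p 0.264). In 180D none of the 6 passed by limma, nor at an unadjusted p under 0.05, where 3.75% of all genes passed. The changes of the lines differed for FASN (1.10 ± 0.16) and TXNIP (0.43 ± 0.10). For TXNIP this was lost without a KYSE30 array, 180U replicate 1 or 180D replicate 1 (highest adjusted p 0.124) and when blocked by parental population (adjusted p = 0.0535). Between the lines ARRDC4 was higher in KYSE180 (1.62 ± 0.08), and KLF10 and FASN were lower (-0.82 ± 0.06 and -1.23 ± 0.21).

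The corepressors that MXD proteins and MNT recruit include SIN3 and its histone deacetylases. In 30D 3 of 11 were lower and none higher by limma (1 at an unadjusted p under 0.05), where 8.12% and 8.42% of all genes were, with a median of -0.08. SUDS3, a SIN3 subunit, read 9.40 and 9.41 in 30U and 9.05 and 9.03 in 30D (-0.37 ± 0.05, adjusted p = 0.00464), kept in all 8 fits without an array. The histone-binding subunits RBBP4 and RBBP7 (-0.35 ± 0.08 and -0.23 ± 0.05) were not kept with any 1 of the 4 KYSE30 arrays left out (highest adjusted p 0.133 and 0.163), nor when blocked by parental population (adjusted p = 0.0769 and 0.0795). In 180D none passed (1 at an unadjusted p under 0.05). SUDS3 and RBBP7 differed in the lines' changes (0.44 ± 0.07 and 0.32 ± 0.08). SUDS3 lost that call without 30U replicate 2 or 30D replicate 2 (highest adjusted p 0.0522). RBBP7 lost it without any array but 180D replicate 2 (highest adjusted p 0.134) and when blocked by parental population (adjusted p = 0.0964). Between the lines 4 were higher and 5 lower in KYSE180, where 67.1% of all genes differed, led by ING1 (1.10 ± 0.06) and HDAC1 (-0.94 ± 0.06).

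MYC cofactors, many of them acetyltransferase subunits, had 2 of 14 genes lower in 30D and none higher by limma (2 at an unadjusted p under 0.05), a share near the 16.5% of all genes that passed. SKP2, a ubiquitin ligase subunit that also degrades CDKN1B, read 10.79 and 10.88 in 30U and 10.35 and 10.38 in 30D (-0.47 ± 0.06, adjusted p = 0.00295), kept in all 8 fits without an array. ACTL6A (-0.29 ± 0.07) was lost with any 1 of the 4 KYSE30 arrays left out (highest adjusted p 0.188) and when blocked by parental population (adjusted p = 0.0558). In 180D none of the 14 passed (1 at an unadjusted p under 0.05), and SKP2 differed in the lines' changes (0.51 ± 0.08). Between the lines 6 were higher and 3 lower in KYSE180, near the share of all genes, with RUVBL1 at 1.35 ± 0.06 and TRRAP at 1.20 ± 0.10.

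Of the genes of MYC protein turnover 2 of 14 passed in KYSE30 and 1 in KYSE180, and of the regulators of MYC transcription and mRNA 1 of 14 and none (2 at an unadjusted p under 0.05), where 16.5% and 3.75% of all genes passed. USP28, a deubiquitinase that stabilises MYC, was lower in 30D (-0.44 ± 0.07, or -0.29 on the mean of its probe sets, limma adjusted p = 0.00862), but not without 30U replicate 1 or 30D replicate 1 (highest adjusted p 0.0625). AURKA, a kinase that protects MYCN from degradation, was higher in 30D (0.23 ± 0.05) and in 180D (0.28 ± 0.05). Its calls did not hold when blocked by parental population (adjusted p = 0.0668 and 0.104), nor in KYSE30 with any 1 of its 4 arrays left out, nor in KYSE180 in any of the 8 fits (highest adjusted p 0.178 and 0.122). TCF7L2, a Wnt effector that binds the MYC locus, was lower in 30D (-0.27 ± 0.06, adjusted p = 0.0242), lost with any 1 of the 4 KYSE30 arrays left out (highest adjusted p 0.126). No other gene of these lists, with 14 tested in each, passed in either line.

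Between the lines 10 of the 14 turnover genes and 8 of the 14 regulators differed, where 67.1% of all genes did. USP22, a deubiquitinase of the SAGA complex, was at 11.54 to 11.63 on KYSE30 arrays and 7.62 to 7.77 on KYSE180 arrays (-3.89 ± 0.04, limma adjusted p = 1.05e-10), and at -2.01 on the mean of its probe sets. The ubiquitin ligases FBXO32 and TRIM32 were also lower in KYSE180 (-2.59 ± 0.06 and -1.001 ± 0.05). The regulators CTCF (0.74 ± 0.05) and CNBP (0.54 ± 0.04, or 0.32 on the mean of its probe sets) were higher and PUF60 (-0.61 ± 0.04) and STAT3 (-0.67 ± 0.06) lower.

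The genes whose levels ran most like MYC over the 8 arrays were PDCD2L, with a Pearson r of 0.998, and USP11, UBE2L6, TRAPPC4 and LAMB3, each with 0.996. PDCD2L went from 8.57 in 30U to 8.94 in 30D, 9.34 in 180U and 9.37 in 180D. With the mean of each line subtracted, the closest were UGT8 at 0.997, NSF and TRAPPC4 at 0.996, SCFD2 at 0.995 and CIAPIN1 at 0.994. TRAPPC4, a subunit of a vesicle tethering complex, was on both lists, with means of 8.94, 9.34, 9.91 and 9.91 in the 4 groups. UGT8 lay below the filter value on KYSE30 arrays, at 2.56 in 30U and 3.61 in 30D. These correlations describe 8 arrays that share 2 lines and were picked as the highest of 14180 genes.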

How the data were processed

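Transcripts of 8 cultured sublines were measured on Affymetrix arrays with 54675 probe sets. The deposited table holds log2 expression values that the authors computed by RMA (background correction, normalization between arrays and a summary of the probes), per the submitters' processing notes. Its version was not given in the sources used here. RMA makes the arrays' distributions alike, so a change in total RNA per cell is not seen, and it understates differences of dim genes.

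The platform annotation gave 1 symbol for 41091 probe sets, several for 1801 and none for 11721, and 62 were controls. A RefSeq table (GRCh38.p14) brought 41037 of the single symbols up to date by Entrez ID. Probe sets with a mean under the 40th percentile, a log2 value of 4.46, were left out. The brightest probe set on average stood for its gene. MXD4 was left out because its probe sets name several genes. Promoter sequences are RefSeq's, build GRCh38.p14.

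All 14180 genes were tested two-sided by limma 3.58.1 (lmFit, then eBayes) under R 4.3.3. Benjamini-Hochberg adjusted p-values were set against 0.05. A fit of 4 group means gave D minus U in each line and the difference between these, and an additive fit of line and fraction gave KYSE180 minus KYSE30. The fits were tested on simulated data. Alternatives were other filters, probe set choices, median centring, an intensity trend, single-line fits, the parental population as a block and leaving out each array. Fitting every probe set as its own row was added after seeing the data. The pairing for the block comes from the labels. Paired sublines' deviations from their group means correlated at -0.0228 in KYSE30 and 0.0203 in KYSE180.

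The members and lists were chosen with earlier results of these data known. All members are named, and of each list up to 4 genes per comparison with the smallest p among those that passed. Per-array values and genes given beyond that are descriptions chosen after the values were seen.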

Additional observations from a re-analysis of the deposited data

Results flagged for a closer look

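The D minus U changes of KYSE180 and KYSE30 differed by a direct limma test for the network and list genes below, cell type markers aside. Values are given as the KYSE180 change minus the KYSE30 change on the log2 scale. Among the network genes this value was -1.03 for MYC, where it rests on the KYSE30 difference known when the genes were chosen, 0.68 for MNT and -0.43 for MGA. Of the genes that MYC induces, POLR3G stood at -0.75, ODC1 at -0.73, HK2 at -0.73 and RRP12 at -0.45. UTP20, a ribosome assembly factor, stood at -0.40 and SRM at -0.39. POLR1B (-0.43) and PES1 (-0.37) of the same list passed as well (limma adjusted p = 0.0222 and 0.0434). Neither was refitted under the alternatives. Of the genes that MYC represses, NDRG1 stood at -1.07, CDKN1A at 0.87, THBS1 at 0.70, CLU at 0.48 and CDKN1B at 0.30. FASN at 1.10 and TXNIP at 0.43 are targets of the MLX branch. The corepressor subunits SUDS3 and RBBP7 had 0.44 and 0.32, the ligase subunit SKP2 had 0.51 and the Wnt effector TCF7L2 had 0.33. With MYC set aside as a description, MNT, POLR3G, ODC1, HK2, NDRG1, CDKN1A, THBS1, FASN and SKP2 kept this call in all 8 fits without an array. Apart from MYC, the other refitted genes lost it in at least 2 of them. SRM lost it without any array but 180D replicate 1 (highest adjusted p 0.139), TCF7L2 without any but 180D replicate 2 (0.150), RRP12 without a KYSE30 array or 180U replicate 2 (0.0909) and UTP20 without 30U replicate 2, a 30D array or 180U replicate 2 (0.0817). Blocked by parental population, SRM, TCF7L2 and UTP20 did not pass (adjusted p = 0.0548, 0.0760 and 0.0616). On the mean of a gene's probe sets POLR3G, HK2, MGA, RRP12 and TCF7L2 did not pass (-0.43, -0.26, -0.22, -0.21 and 0.19, adjusted p = 0.0906, 0.116, 0.186, 0.248 and 0.187), and nor did TXNIP (0.31, adjusted p = 0.0871).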

How the results depend on the processing

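Each alternative changed 1 choice at a time. For D minus U in KYSE180, 532 genes passed, and 311 did with no filter, 1069 with an intensity trend, 195 with the KYSE180 arrays alone and 209 to 502 with an array left out. With the replicate block, paired by parental population, 230 passed. Median centring moved the split from 361 higher and 171 lower to 269 and 236. For the difference of the changes, 1723 genes passed, and 1142 did with no filter, 2700 with the trend, 1011 with the paired block and 727 to 1702 with an array left out. In KYSE30 the 2346 calls became 834 to 2553. Among the members, 2 passed in KYSE180 with the trend and 5 in the difference of the changes. With an array left out, 2 to 6 members passed in KYSE30, 1 in KYSE180, 2 to 3 in the difference and 7 to 8 between the lines. Values that reversed, meaning a change of sign with a call in at least 1 of the fits compared, came from probe set choice. Between the lines MAX was at -0.051 on the mean of its probe sets (adjusted p = 0.424) and MNT at 0.048 on its next probe set (adjusted p = 0.602), and in the difference of the changes MGA was at 0.00995 on its next probe set (adjusted p = 0.957). The cause of these shifts was not tested. For the members, 516 single-gene results kept their side of the threshold, though the sign could change where neither fit passed. MYC in KYSE180, for example, ran from -0.09 to 0.06 over the alternatives. With the sign kept, 25 results lost the call and 12 gained it, and 2 reversed. Apart from MLX in KYSE30, the block ended no call of the 9 measured members. With 2 arrays a group, small differences such as that of MLX in KYSE30 passed in some fits and not in others. For dim probe sets near the filter value, small differences could not be resolved.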
